A study of Mus musculus with 16 samples.

Results

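The 9 myelin genes described here, Mbp, Mog, Mag, Mobp, Cnp, Cldn11, Opalin, Ugt8a and Mal, are genes of mature oligodendrocytes, the cells that wrap axons of the central nervous system in myelin. They were followed on 16 arrays of mouse cerebellum, and were chosen by name, with every probe whose transcript accession belongs to a member gene. The rule found 14 probes among the 56605 of the array, and all 14 were among the 37253 probes kept for testing, so the 9 genes are 9 of 16737 named genes. A probe is a short DNA strand fixed to the array, and its signal stands for the amount of RNA bound to it. Values are given as log2 of that signal after normalization, so a difference of 1 is a doubling, and signals of different probes are not compared with each other.

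Myelin is a stack of oligodendrocyte membrane whose layers are held together by a small set of abundant proteins and by lipids rich in galactose. Mature oligodendrocytes make these proteins together, under transcription factors such as Sox10 and Myrf, and in the cerebellum most of them lie in the white matter and the deep nuclei, with fewer in the granular layer. ATM is the kinase of the DNA damage response that is lost in ataxia telangiectasia, a disease in which the cerebellum degenerates.

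The WT mice and the Atm-/- mice, which were homozygous for the targeted allele of the strain B6;129S4-Atmtm1Bal/J, were littermates and are labelled as male. From 6 weeks of age they drank either plain water (veh) or water with 12 mM nicotinamide riboside (NR, 3.5 mg/ml), a precursor of NAD+, for 2 months, so that all were 3.5 months old. This gave WT veh and WT NR mice beside Atm-/- veh mice and their NR counterparts (Atm-/- NR), with 4 mice and 4 arrays in each of the 4 groups. RNA came from a weighed piece of cerebellar cortex of each mouse, and the Atm allele is missing from every cell of the animal, not from oligodendrocytes alone.

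Several features of the arrays bear on every value below. Each slide is thought to hold the arrays of 1 genotype, and each row of a slide those of 1 treatment. On that layout genotype and slide, and NR and row, cannot be told apart. Between 34945 and 42559 probes per array were well above background. The dimmer of 2 kept Atm probes read 8.63 to 9.03 in WT veh and 7.91 to 8.08 in Atm-/- veh, a change of -0.87 (limma, adjusted p = 0.000317), and 8.52 to 8.65 in WT NR against 7.72 to 7.88 in Atm-/- NR, while the brighter one changed by -0.35 between the veh groups (limma, adjusted p = 0.221) and by -0.12 between the NR groups (adjusted p = 1), where the Atm-/- NR arrays, at 8.61 to 9.23, spanned the whole WT NR range of 8.88 to 9.02. The labels call every mouse male, yet on Atm-/- veh 3, Atm-/- NR 4, WT NR 1 and WT NR 4 the Y-linked gene Eif2s3y read 2.34 to 2.66 against 11.21 to 11.85 on the other 12 arrays, and Xist, the RNA of the inactive X chromosome, read 6.68 to 7.80 against 2.25 to 3.34. The Y-linked Uty read 5.11 on Atm-/- NR 4, between the 2.32 to 2.65 of the other 3 and the 7.65 to 8.11 of the 12, which are called arrays with Y-linked signal below. The choroid plexus markers were 5.81 above their 16-array mean on WT veh 4, and Tcf7l2 stood near 13.51 to 13.80 on arrays 2 and 3 of each NR group against 9.57 to 10.12 on the other 12 arrays.

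All 14 probes were well above background on all 16 arrays, none of their spots was saturated, and none was marked as an outlier. Among markers of Schwann cells, which make the myelin of peripheral nerves, Pmp2 was not kept, Egr2 was well above background on 15 of 16 arrays, and Prx and Ncmap were on all 16. Of the genes, 5 had 1 probe, 3 had 2 probes and 1 (Mbp) had 3. Each gene is represented by its brightest kept probe unless stated.

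Promoters of 4 members are shown because Mobp and Cldn11 moved together more closely over the 16 arrays than any other pair of members (Pearson r = 0.918), whereas Opalin and Ugt8a parted from Mobp (r = -0.0556 and 0.25). Over deviations from the group means, these 2 correlations with Mobp were -0.295 and 0.00569. Without Atm-/- veh 3 they were 0.344 and 0.859. The parting of Ugt8a, and part of that of Opalin, thus rested on 1 array. Each line holds the 250 bases before the start of the gene, written along the coding strand from RefSeq on GRCm38.p6, with matches to the searched motifs in capitals. The windows are chr9:120149492-120149741 (plus strand) for Mobp, chr3:31149670-31149919 (plus strand) for Cldn11, chr19:41077114-41077363 (minus strand) for Opalin and chr3:125938653-125938902 (minus strand) for Ugt8a.
Mobp: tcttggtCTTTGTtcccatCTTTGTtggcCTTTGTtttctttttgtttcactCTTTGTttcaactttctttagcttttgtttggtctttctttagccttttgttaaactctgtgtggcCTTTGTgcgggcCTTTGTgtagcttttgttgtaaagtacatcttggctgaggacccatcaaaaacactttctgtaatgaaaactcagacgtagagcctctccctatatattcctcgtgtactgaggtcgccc
Cldn11: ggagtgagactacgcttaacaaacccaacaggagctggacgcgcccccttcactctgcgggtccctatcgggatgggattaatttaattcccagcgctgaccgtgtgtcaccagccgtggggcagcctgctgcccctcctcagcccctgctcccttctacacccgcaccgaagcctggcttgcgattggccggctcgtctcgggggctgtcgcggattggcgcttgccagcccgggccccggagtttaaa
Opalin: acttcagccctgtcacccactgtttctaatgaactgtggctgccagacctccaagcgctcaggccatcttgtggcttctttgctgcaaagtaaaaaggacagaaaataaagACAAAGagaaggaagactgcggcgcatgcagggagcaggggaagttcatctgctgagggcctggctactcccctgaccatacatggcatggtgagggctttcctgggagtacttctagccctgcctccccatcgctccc
Ugt8a: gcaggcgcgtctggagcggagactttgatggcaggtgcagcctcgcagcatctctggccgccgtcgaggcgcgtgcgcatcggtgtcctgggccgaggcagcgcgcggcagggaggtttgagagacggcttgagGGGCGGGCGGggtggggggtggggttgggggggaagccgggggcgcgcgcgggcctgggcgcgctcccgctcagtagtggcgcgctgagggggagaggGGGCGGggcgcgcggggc
Letters were searched on both strands, namely ACAAAG as a core bound by SOX factors, ACAATG as its first variant, AACAAT as its second variant, CTGGTAC as a core bound by MYRF, CTGGCAC as the variant of that, CAGCTG as an E-box, GGGCGG as a GC box and TATAAA as a TATA box. The Mobp window holds ACAAAG 6 times, each on the minus strand, the Opalin window holds it once, and 16.5% of all 32851 promoters in the table hold it. The Ugt8a window holds GGGCGG 3 times, with 1 pair of matches overlapping, and 32.7% of all promoters hold that motif. No searched motif lies in the Cldn11 window. Over the 10 windows of the 8 members in the table, 5 hold ACAAAG, 3 hold CTGGCAC (4.19% of all promoters) and 1 holds CTGGTAC (1.83% of all promoters), with 2 of the 3 Mag windows overlapping. GGGCGG lies in 2 of the 10. The other 2 SOX letters, ACAATG and AACAAT, lie in 0 of the 10, against 10.7 and 9.42% of all promoters. CAGCTG and TATAAA also lie in 0, against 13 and 12.4%. A match describes these letters and is not a measured binding site.

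The 9 genes shared 1 ranking at the top. WT NR had the highest mean of the 4 groups for 9 of 9 members, while the lowest mean was in Atm-/- NR for 4 (Mag, Mobp, Cnp and Cldn11), in Atm-/- veh for 4 (Mbp, Opalin, Ugt8a and Mal) and in WT veh for 1 (Mog). Averaged over the members, the deviation from the 16-array mean was 0.31 ± 0.36 in WT NR and -0.047 ± 0.42 in WT veh, and it was -0.12 ± 0.13 in Atm-/- NR and -0.14 ± 0.082 in Atm-/- veh (SD, n = 4). With limma at an adjusted p under 0.05, 0 of 9 members were called in any of the 5 comparisons made, which do not include WT veh against Atm-/- NR. RNA of whole tissue was measured, so fewer oligodendrocytes and less myelin RNA per oligodendrocyte cannot be told apart in any value below.

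**Figure D1:**
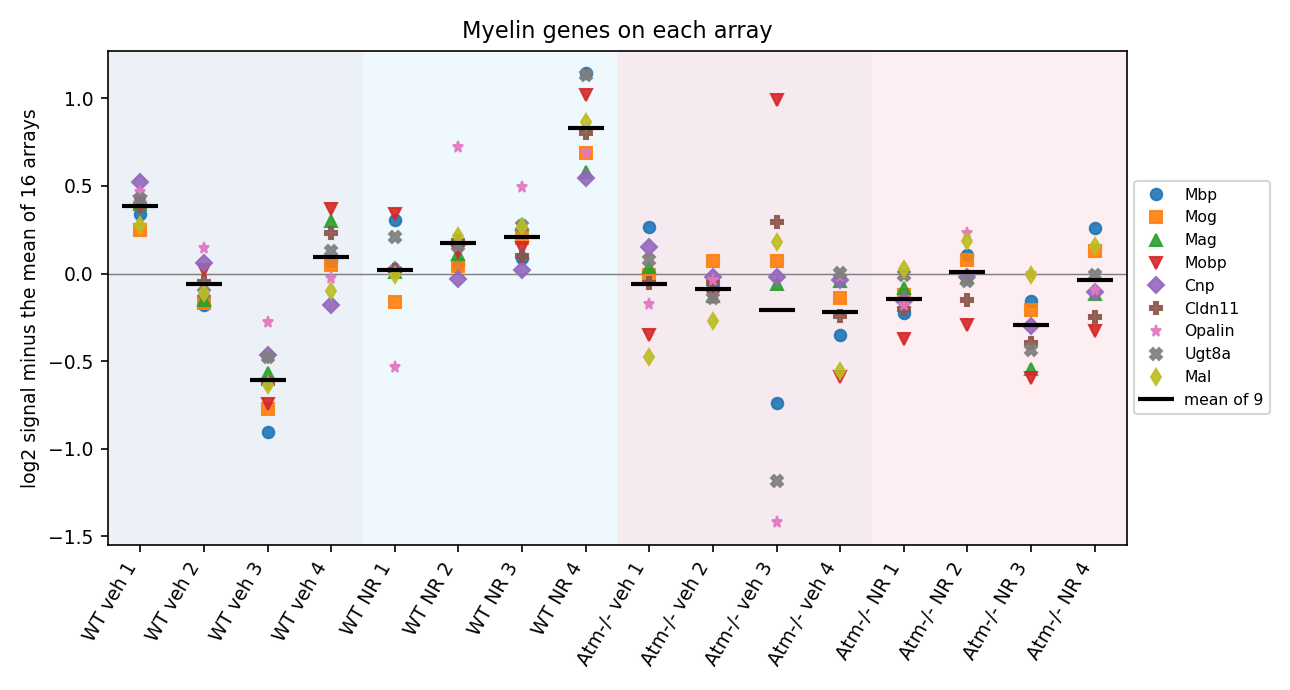
Log2 signal of each of the 9 myelin genes on each of the 16 arrays, minus that gene's mean over all arrays, with the black bar as the mean of the 9 genes. WT NR 4 stands highest and WT veh 3 lowest as a block, while on Atm-/- veh 3 the genes spread from -1.42 (Opalin) to 0.99 (Mobp).

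The proteins that bind the membrane layers from the inside come first. Mbp encodes myelin basic protein, which pulls the cytoplasmic faces of the membrane together. Its brightest probe read 14.21, 13.69, 12.96 and 13.94 on WT veh arrays 1 to 4, and 14.17, 13.92, 13.95 and 15.01 on WT NR. The Atm-/- arrays read 14.13, 13.79, 13.13 and 13.52 under veh and 13.64, 13.97, 13.71 and 14.13 under NR. WT NR 4 was the highest array and WT veh 3 the lowest, and every pair of groups overlapped. Mbp had the largest NR difference of the members in WT mice, 0.57 (SE 0.29, a factor of 1.48, limma adjusted p = 0.693), with a 95% confidence interval of -0.061 to 1.19.

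The 3 Mbp probes did not move as 1. The second-brightest one, designed to another transcript accession, ranged over 0.667 on the 16 arrays where the brightest ranged over 2.05, and the correlation between them was -0.153 (Spearman rho -0.122, n = 16 arrays of 1 hybridization each). In WT NR against WT veh the second probe was the 1 member probe of 14 with a lower mean under NR, by -0.15. The third probe, to the same accession as the brightest, tracked it over the arrays (r = 0.86, rho 0.806) but not on Atm-/- veh 3, where the brightest was 0.68 below the mean of the other 3 Atm-/- veh arrays and the third was 0.13 above it.

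**Figure D2:**
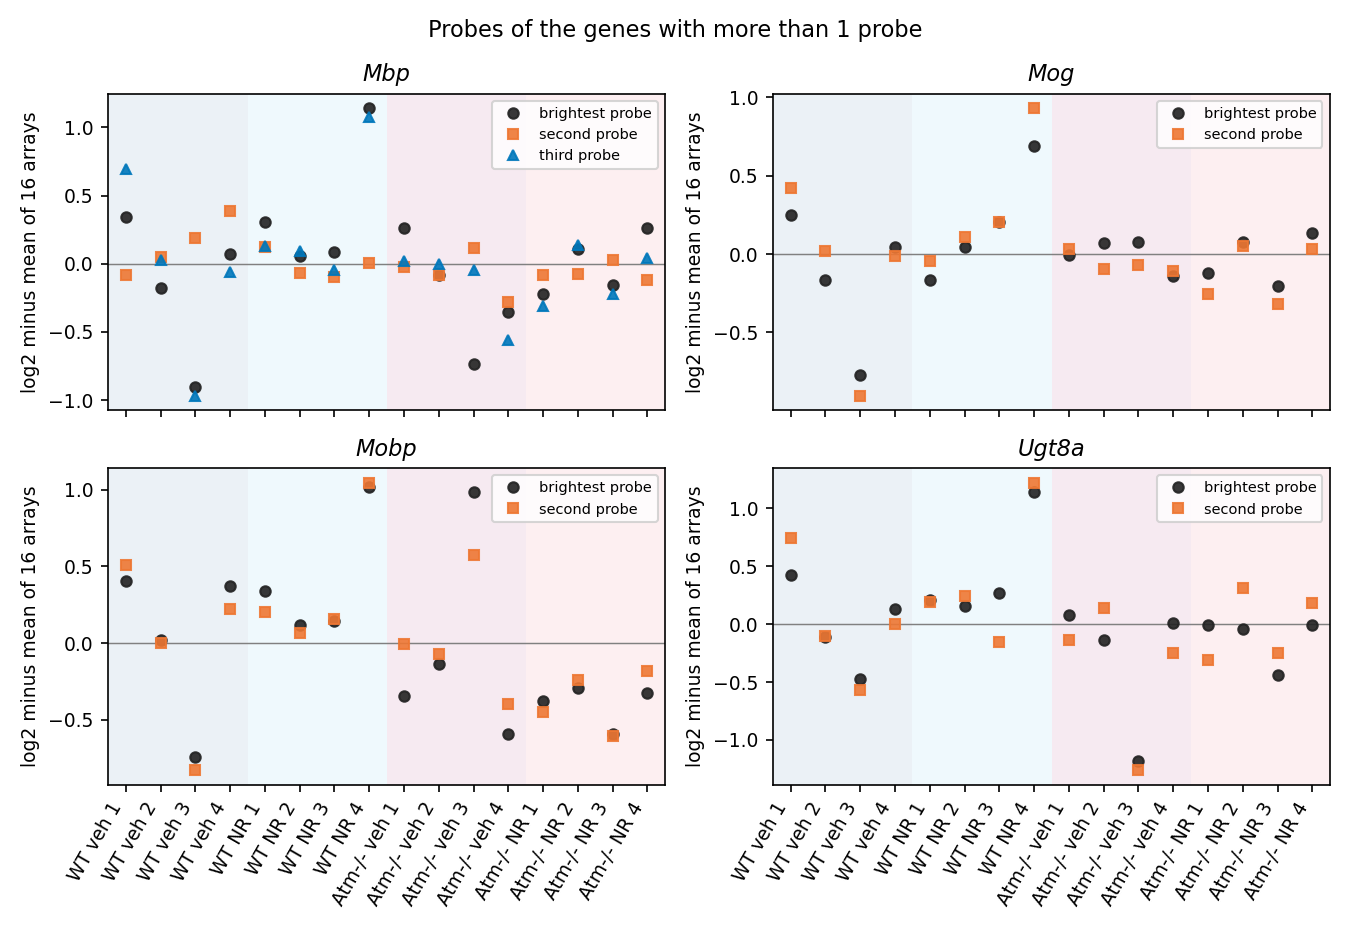
Log2 signal of each probe of the 4 members with more than 1 probe, minus the probe's mean over the 16 arrays, by array. The second Mbp probe stays nearly level while the other 2 swing on WT veh 3 and WT NR 4, and both Mobp probes are high and both Ugt8a probes low on Atm-/- veh 3.

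Mobp encodes myelin-associated oligodendrocyte basic protein, a small protein of the same inner face. It read 14.20, 13.82, 13.05 and 14.16 in WT veh and 14.13, 13.91, 13.94 and 14.81 in WT NR. In Atm-/- tissue it read 13.44, 13.66, 14.78 and 13.20 under veh and 13.42, 13.50, 13.20 and 13.46 under NR. The 4 Atm-/- NR arrays lay below all 4 WT NR arrays, and Atm-/- veh 3 stood above all other Atm-/- arrays. The genotype difference under NR, -0.80 (SE 0.33, a factor of 1.75, 95% confidence interval -1.50 to -0.11), was the largest difference in any member, with an unadjusted p of 0.0271 and an adjusted p of 0.901 (limma). The second Mobp probe followed the first over the arrays (r = 0.95, rho 0.976).

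Cnp encodes the 2',3'-cyclic-nucleotide phosphodiesterase that keeps cytoplasmic channels in myelin open. It read 15.07, 14.60, 14.08 and 14.36 in WT veh and 14.56, 14.51, 14.57 and 15.09 in WT NR. Atm-/- arrays gave 14.70, 14.52, 14.52 and 14.51 under veh and 14.39, 14.53, 14.24 and 14.44 under NR. Apart from WT veh 1 and WT NR 4 at the top and WT veh 3 at the bottom, the arrays lay within a narrow band. Cnp had the smallest NR difference of the 9 genes in WT mice, 0.15 (SE 0.18, limma adjusted p = 0.896).

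Next come the proteins of the membrane surface and of the contact with the axon. Mag encodes myelin-associated glycoprotein, which sits on the innermost layer facing the axon. It read 14.51, 13.96, 13.54 and 14.41 in WT veh and 14.12, 14.22, 14.39 and 14.69 in WT NR. Its Atm-/- values were 14.15, 13.98, 14.05 and 14.07 under veh and 14.03, 14.09, 13.56 and 14.00 under NR. The Atm-/- veh arrays spanned less than any other group, and the WT NR arrays lay just above all Atm-/- NR arrays. That difference was -0.44 (SE 0.19, unadjusted p 0.0397 and adjusted p = 0.942 with limma).

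Mog encodes myelin oligodendrocyte glycoprotein, found on the outermost layer and made late in maturation. It read 10.86, 10.44, 9.83 and 10.65 in WT veh and 10.44, 10.65, 10.81 and 11.30 in WT NR, and in the Atm-/- mice 10.60, 10.68, 10.68 and 10.47 under veh and 10.49, 10.68, 10.40 and 10.74 under NR. Both Atm-/- groups lay inside the range of WT veh. It was the 1 member with its lowest group mean in WT veh, and the genotype difference under veh was 0.16 (SE 0.20, limma adjusted p = 0.746).

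Cldn11 encodes claudin 11, which forms the tight junctions between myelin layers. It read 14.05, 13.61, 13.04 and 13.89 in WT veh and 13.69, 13.85, 13.76 and 14.46 in WT NR. The Atm-/- arrays read 13.61, 13.61, 13.96 and 13.42 under veh and 13.46, 13.51, 13.27 and 13.42 under NR. As with Mobp, the WT NR arrays lay above all Atm-/- NR arrays and Atm-/- veh 3 was the highest of its group. The genotype difference was -0.52 under NR (SE 0.21, unadjusted p 0.0251 and adjusted p = 0.897 with limma) and 0.0012 under veh.

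Opalin encodes a transmembrane protein of the paranodal loops of central myelin. It read 9.67, 9.35, 8.93 and 9.18 in WT veh and 8.67, 9.93, 9.70 and 9.89 in WT NR. In Atm-/- tissue it read 9.03, 9.17, 7.79 and 9.19 under veh and 9.03, 9.44, 9.20 and 9.11 under NR. Its lowest array was Atm-/- veh 3, and unlike the other 8 members its highest was WT NR 2 in place of WT NR 4. The genotype difference under veh, -0.49 (SE 0.32, limma adjusted p = 0.497), was -0.15 without Atm-/- veh 3.

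The last 2 members serve the lipids and the sorting of the membrane. Ugt8a encodes the transferase that adds galactose to ceramide, the step that makes the main glycolipid of myelin. It read 10.86, 10.32, 9.96 and 10.56 in WT veh and 10.64, 10.59, 10.70 and 11.57 in WT NR. Atm-/- arrays gave 10.51, 10.29, 9.25 and 10.44 under veh and 10.43, 10.39, 9.99 and 10.42 under NR. The Atm-/- NR arrays lay below all WT NR arrays, with a difference of -0.57 (SE 0.29, unadjusted p 0.0701 and adjusted p = 0.969 with limma), and Atm-/- veh 3 was the lowest of all 16. Without that array the genotype difference under veh went from -0.30 to -0.012.

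Mal encodes a small membrane protein that sorts cargo to myelin. It read 15.61, 15.22, 14.70 and 15.24 in WT veh and 15.33, 15.55, 15.60 and 16.20 in WT NR. Its Atm-/- values were 14.86, 15.06, 15.51 and 14.78 under veh and 15.36, 15.52, 15.33 and 15.49 under NR. Among the Atm-/- veh arrays number 3 reached the NR range, and the other 3 lay below all NR arrays. The NR differences were 0.47 in WT mice (SE 0.21, 95% confidence interval 0.019 to 0.93, unadjusted p 0.0424 and adjusted p = 0.641 with limma) and 0.37 in Atm-/- mice (adjusted p = 0.276, the lowest of any member in any comparison). Without Atm-/- veh 3 the second of these was 0.52.

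The first question of the design is how the loss of Atm shows under plain water. In Atm-/- veh against WT veh, 3 of 9 members were higher and 6 lower, from -0.49 (Opalin) to 0.16 (Mog), with a median of -0.043 beside -0.028 over all 16737 named genes. With limma 0 of 9 were called, where 0.0538% of all named genes were, 0 had an unadjusted p under 0.05 (16.8% of all named genes), and 0 had groups that did not overlap (8.74%). The methods' t-test passed 0 members and 4369 of the 37253 kept probes. The standard errors ran from 0.18 to 0.33, and the 95% confidence intervals of the 9 genes lay between -1.18 and 0.66. The median rested on WT veh 3, the array lowest in 7 of 9 members: without it all 9 members were lower in Atm-/- veh, with a median of -0.29, while without WT veh 1 it was 0.096 and without WT veh 4 it was 0.022.

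Under NR, all 9 members were lower in Atm-/- mice than in WT mice. The differences ran from -0.80 (Mobp) to -0.22 (Mog) with a median of -0.40, beside 0.0078 over all named genes, and 9 of 9 were also lower after 75th percentile scaling, normexp background correction or in the deposited z-scores. Groups did not overlap for 4 members (Mag, Mobp, Cldn11 and Ugt8a), against 4.53% of all named genes. With limma 0 of 9 were called (adjusted p 0.897 to 1), as against 0.0597% of all named genes, and 3 had an unadjusted p under 0.05 (Mag, Mobp and Cldn11), against 4.34%. The methods' t-test passed the same 3 at its unadjusted threshold and 0 after Benjamini-Hochberg adjustment. Of the 37253 kept probes it passed 2392 and 10. Without WT NR 4, the array highest in 8 of 9 members, the median was -0.24 with all 9 still lower and 0 unadjusted p under 0.05.

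In Atm-/- mice, the members lay in both directions under NR. In Atm-/- NR against Atm-/- veh, 4 were higher and 5 lower, from -0.38 (Mobp) to 0.40 (Opalin), and the median was -0.029 beside 0.036 over all named genes. No member was called by limma, in the comparison in which 11.5% of all named genes were, 0 had an unadjusted p under 0.05 (30.5% of all named genes) and 0 had groups that did not overlap (26.3%). The methods' t-test passed 0 members and 10019 of the 37253 kept probes. The median turned to 0.00439 with normexp and to 0.030 without Atm-/- NR 3 (0.000776 without Atm-/- NR 1), and both extremes shrank without Atm-/- veh 3, to -0.041 for Mobp and 0.065 for Opalin.

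In WT mice all 9 members were higher under NR, also with each other scaling. The differences ran from 0.15 (Cnp) to 0.57 (Mbp), with a median of 0.35 beside -0.0060 over all named genes. No member was called by limma (adjusted p 0.641 to 0.901), nor was any named gene (0%), and 1 member, Mal, had an unadjusted p under 0.05, against 8.84% of all named genes. Every member's groups overlapped, where 4.58% of all named genes did not. The methods' t-test passed 0 members and 2476 of the 37253 kept probes. Single arrays set the size: the median was 0.19 without WT NR 4 and 0.15 without WT veh 3, with 9 of 9 higher each time. The 4 WT NR arrays enter this comparison, Atm-/- NR against WT NR and the difference between the NR effects below. These comparisons are therefore not separate evidence.

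The NR effect was lower in Atm-/- than in WT mice for 8 of 9 members, with Opalin as the exception, and the median difference between the effects was -0.34 beside 0.035 over all named genes. No difference was called with limma (adjusted p 0.839 to 0.965, 0% of all named genes), and 0 had an unadjusted p under 0.05, against 5.96%. The 95% confidence intervals lay between -1.76 and 1.11. Without WT veh 3 the median was -0.17, and without WT NR 4 it was -0.18.

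**Figure D3:**
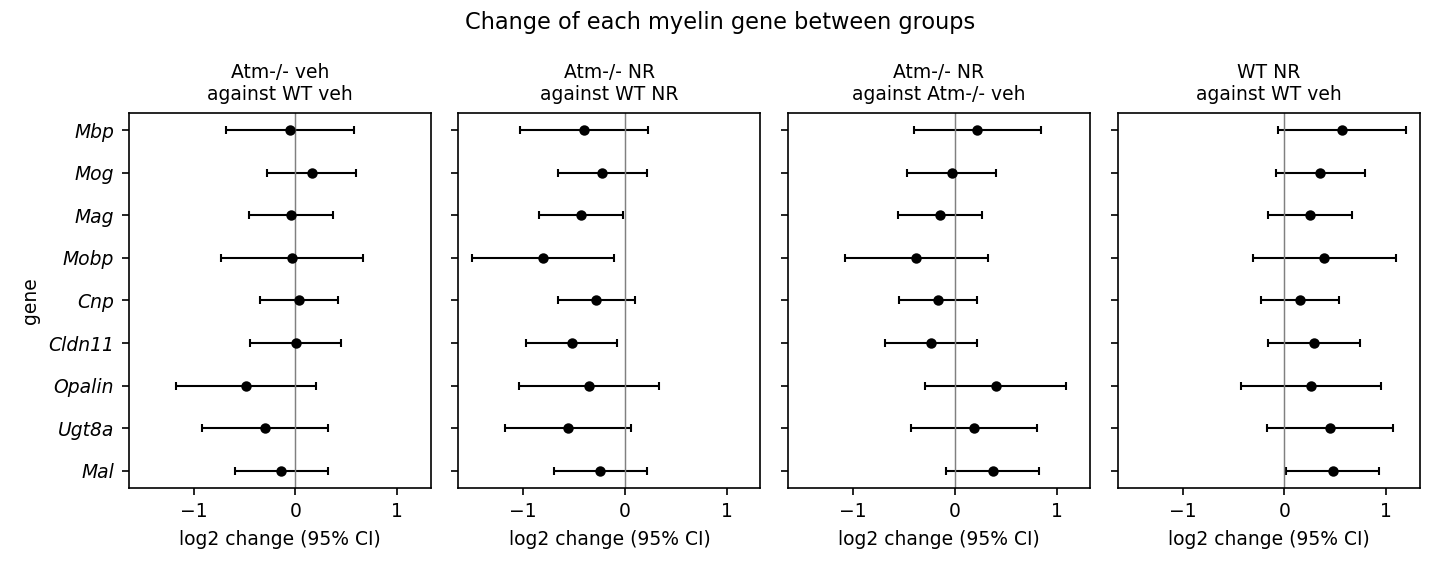
Log2 change of each myelin gene in the 4 comparisons between groups, with points for the fitted change and bars for its 95% confidence interval (limma, 4 arrays a group). Points lie left of 0 for all 9 genes in Atm-/- NR against WT NR and right of 0 for all 9 in WT NR against WT veh, and most intervals cross 0.

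The spread between mice was also set side by side. The SD between the 4 arrays of a group had a median over the members of 0.443 in WT veh and 0.374 in WT NR, against 0.329 under veh and 0.159 under NR in the Atm-/- mice. It was smaller in Atm-/- NR than in WT NR for 9 of 9 members, and smaller in Atm-/- veh than in WT veh for 6 of 9, the exceptions being Mobp, Opalin and Ugt8a. These SDs were not tested, and genotype and slide cannot be told apart. The SDs of WT NR include WT NR 4, the highest array in 8 of 9 members, and were not taken without it. The same count over all named genes was not made. Within groups the members varied more than the typical gene, with a median residual SD of 0.316 beside 0.182 over all named genes. The other oligodendrocyte genes, described below, also varied more than that, with a median of 0.271. Among the members Mobp (0.491) and Opalin (0.484) varied most.

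On 5 of the 16 arrays all 9 members deviated the same way from their 16-array means. They were above on WT NR 4, by 0.55 to 1.14, on WT veh 1, by 0.25 to 0.53, and on WT NR 3, by 0.022 to 0.50. They were below on WT veh 3, by -0.90 to -0.28, and on Atm-/- NR 3, by -0.60 to -0.0018. The axon list (Slc17a6, Nefh, Nefm and Nefl) read 1.11 on WT NR 4, 0.33 on WT veh 1 and -1.18 on WT veh 3, and its correlation with the myelin mean over the 16 arrays was 0.626 (rho 0.659, 0.455 without WT NR 4 and WT veh 3). Slc17a6 had the wider swings in this list, at 2.12, 1.42 and -3.77 on these arrays, where the 3 neurofilament genes averaged 0.77, -0.031 and -0.31. The correlation with the myelin mean was 0.522 for Slc17a6 (rho 0.594, 0.42 without WT NR 4 and WT veh 3) and 0.809 for the neurofilament mean (rho 0.753, 0.535 without them). Y-linked signal was also missing on WT NR 4. The part of either in the myelin values was not tested. With only the 12 arrays that had Y-linked signal, all 9 members were still higher in WT NR than in WT veh (median 0.22) and lower in Atm-/- NR than in WT NR (median -0.37). In this setting WT NR held only arrays 2 and 3. Both were high in Tcf7l2 and in Slc17a6, which read 12.47 and 12.75 on them.

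Atm-/- veh 3 stood apart in another way, because the members separated on it. The distance from its lowest to its highest member deviation was 2.41, whereas it was between 0.275 and 0.871 on the other 15 arrays. Against the mean of the other 3 Atm-/- veh arrays, Mobp was 1.35 higher, Mal 0.61 and Cldn11 0.41, while Opalin was 1.34, Ugt8a 1.16 and Mbp 0.68 lower. Mog, Mag and Cnp differed by 0.10 or less. Both probes of Mobp and both probes of Ugt8a moved alike there, whereas those of Mbp did not. Differences of over 1 were seen in 3 of 9 members (33.3%), in 2 of 39 other oligodendrocyte genes (5.13%, Apod at 1.27 and Klk6 at -1.30) and in 700 of 16737 named genes (4.18%). The array was chosen after its values were seen. Y-linked signal was missing on it, and its endothelial markers stood 0.67 above their mean, the highest of the 16 arrays, while the part of these in its myelin values was not tested.

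Within groups the 36 pairs of members correlated with a median Pearson r of 0.69, from -0.295 (Mobp with Opalin) to 0.935 (Cldn11 with Mal). Without Atm-/- veh 3 the median was 0.863, from 0.344 to 0.966 (Mog with Mal), and no pair was below 0. Opalin correlated least with the rest in that setting. These correlations describe arrays that share their hybridization and normalization, over all genes of 1 library each.

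**Figure D4:**
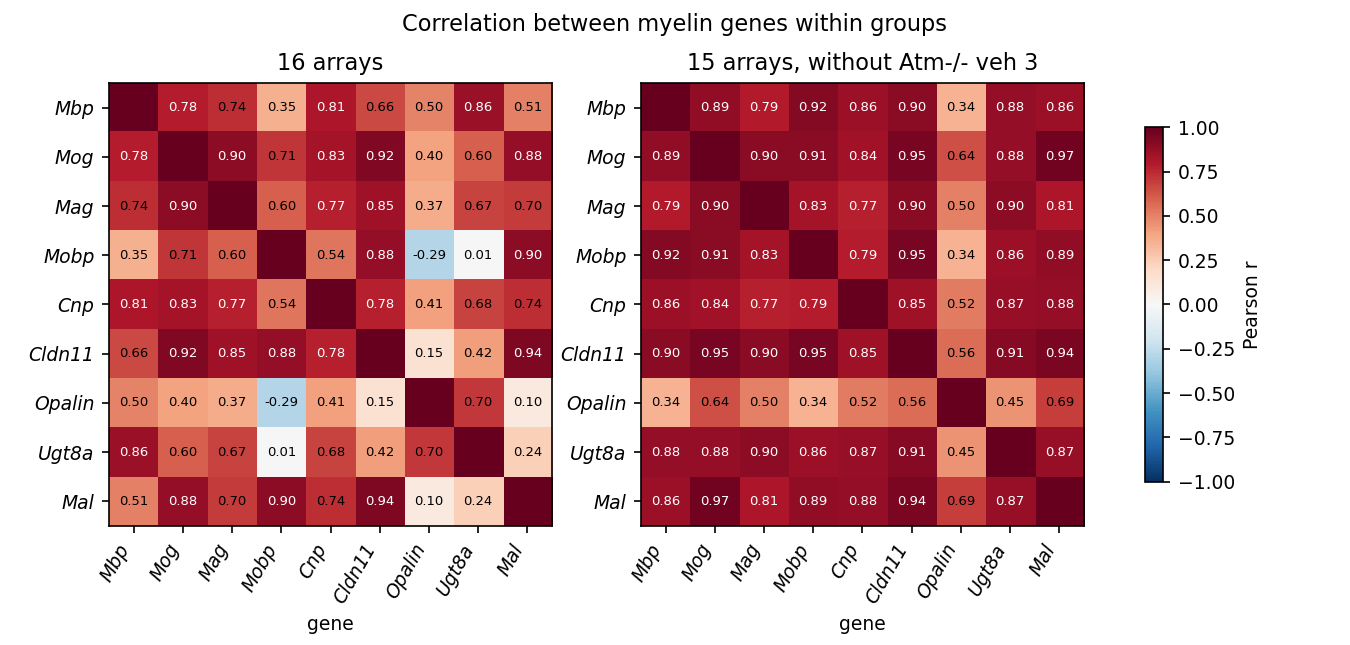
Pearson r between myelin genes over deviations from the group means, with all 16 arrays on the left and without Atm-/- veh 3 on the right. The pale cells of Ugt8a with Mobp and Mal darken when that array is left out, whereas those of Opalin remain the palest.

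Other genes of oligodendrocytes were taken from a list of 40 enzymes, junction proteins and membrane proteins of these cells, of which 39 were measured. Limma called 0 of 39 in each of the 5 comparisons, with 1, 6, 8, 10 and 0 at an unadjusted p under 0.05 for the genotypes under veh, the genotypes under NR, NR in Atm-/- mice, NR in WT mice and the difference between the NR effects. Of all named genes, limma called 0.0538, 0.0597, 11.5, 0 and 0% in this order, and 16.8, 4.34, 30.5, 8.84 and 5.96% had such a p. The median of the 39 was -0.11, -0.34, 0.046, 0.28 and -0.15 in the same order, and 36 of 39 were lower in Atm-/- NR than in WT NR while 34 of 39 were higher in WT NR than in WT veh. Of all named genes, 52.8% were higher in the first of these 2 comparisons and 48.5% in the second. Over the 16 arrays the mean deviation of the 39 followed that of the myelin genes with r = 0.975 (rho 0.968, 0.923 without WT NR 4 and WT veh 3, 0.966 within groups). An r of at least 0.8 with the myelin mean was seen in 18 of 39 (46.2%), in 4 of 11 lineage regulators (36.4%, the factors Sox10, Olig1, Nkx6-2 and Sox8), in 0 of 6 precursor markers, in 1 of 4 axon genes (25%, Nefm) and in 80 of the 16728 named genes that are no members (0.478%). Limma called 0 of the 11 regulators in each comparison, with 2, 2, 0, 2 and 0 at an unadjusted p under 0.05 and medians of -0.068, -0.16, 0.078, 0.24 and -0.16 in the order above. The regulators' mean deviation had a correlation of 0.603 with the myelin mean (rho 0.7, 0.451 without WT NR 4 and WT veh 3), and that of the precursor markers 0.641 (rho 0.656, 0.527 without them).

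Markers of other cells gave a range of correlations with the myelin mean over the 16 arrays. Those of choroid plexus had r = 0.342 (rho 0.744, 0.469 without WT NR 4 and WT veh 3), and those of microglia 0.34 (rho 0.279, 0.12 without them). For granule cells, Purkinje cells and astrocytes r was -0.172, -0.217 and 0.139 (rho -0.247, -0.338 and 0.00882). For endothelial cells, Schwann cells and meninges it was 0.0617, 0.135 and -0.188 (rho 0.332, 0.3 and -0.135).

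**Figure D5:**
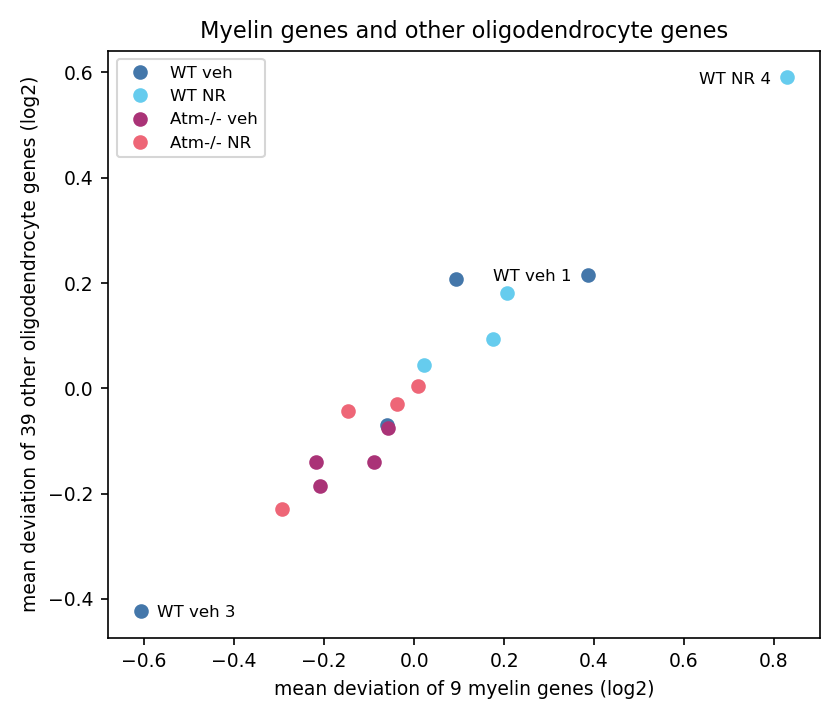
Mean deviation from the 16-array mean (log2) of the 9 myelin genes against that of 39 other oligodendrocyte genes, with 1 point per array coloured by group. The points follow 1 line, from WT veh 3 at the lower left to WT NR 4 at the upper right, and the 8 Atm-/- arrays lie between -0.29 and 0.0082 on the horizontal axis.

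The 8 genes whose signal over the 16 arrays was most like the myelin mean included Adamtsl4 (r = 0.95), Gjb1 (0.944), Bcas1 (0.937), Prr5l (0.93), Fa2h (0.927), Mboat1 (0.926) and Pdlim2 (0.926). Gjb1 encodes a gap junction protein, Bcas1 a protein of myelinating cells and Fa2h the enzyme that hydroxylates the fatty acids of myelin lipids, and all of these were on the oligodendrocyte list. Adamtsl4, Prr5l, Mboat1 and Pdlim2 were on none of the lists. Each gene named here was highest in WT NR on average, as the members were. This follows largely from the choice, since the genes were picked by their likeness to a mean that was highest in WT NR.

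Since no gene of the oligodendrocyte list or of the 11 measured lineage regulators was called, the 3 largest differences were taken from both lists together. In Atm-/- veh against WT veh these were Enpp2 (-0.84, limma adjusted p = 0.498), which makes the lipid signal lysophosphatidic acid, Il33 (-0.61, adjusted p = 0.26), an alarmin of oligodendrocytes and astrocytes, and the repressor Zfp488 (0.57, adjusted p = 0.198). Enpp2 is also made by choroid plexus, and it read 17.32 on WT veh 4, where choroid plexus markers were high, against 13.79 to 15.14 on the other arrays. Without WT veh 4 its difference was -0.036 (adjusted p = 0.945), so its place among the largest rested on that array. Il33 read 11.94 to 12.51 in WT veh and 11.44 to 11.65 in Atm-/- veh, without overlap, as was so for 8.74% of all named genes.

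In Atm-/- NR against Atm-/- veh the 3 largest were Tcf7l2 (2.07, adjusted p = 0.197), a Wnt effector of newly formed oligodendrocytes that neurons can express too, Il33 (0.60, adjusted p = 0.102) and Ermn (-0.49, adjusted p = 0.35), a cytoskeletal protein of myelin. The Tcf7l2 values came in 2 levels, since Atm-/- NR read 10.003, 13.51, 13.80 and 9.98 and Atm-/- veh 9.57 to 9.91. Without the 4 arrays high in it, its difference was 0.24 (adjusted p = 0.322) and that of Ermn -0.15 (adjusted p = 0.903). The arrays high in Tcf7l2 were those highest in Slc17a6, a glutamate transporter of projection neurons, at 12.19 to 12.75 against at most 11.28 elsewhere. Tcf7l2 did not follow the myelin mean (r = 0.0513). Without the 4 arrays, the median of the myelin genes was -0.41 in Atm-/- NR against WT NR and 0.43 in WT NR against WT veh, with all 9 members on the same side as before. In this setting WT NR held only arrays 1 and 4, both without Y-linked signal. WT NR 4 was the array highest in 8 of 9 members. Opalin read 8.67 and 9.89 on arrays 1 and 4, where WT veh had a mean of 9.28.

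Of 6 markers of oligodendrocyte precursors, the cells that renew oligodendrocytes, 6 were measured and 0 were called in any comparison. Of all named genes, limma called 0.0538, 0.0597, 11.5, 0 and 0%, in the order used for the oligodendrocyte list. In Atm-/- veh against WT veh 1 was higher and 5 were lower, with a median of -0.33, or -0.12 without WT veh 4. The median over all named genes was -0.028. By limma 2 of the 6 had an unadjusted p under 0.05, against 16.8% of all named genes. In Atm-/- NR against Atm-/- veh 4 were higher and 2 lower (Cspg4 at -0.24 and Cacng4 at -0.39), with a median of 0.17, or 0.040 without the 4 arrays high in Tcf7l2. The median over all named genes was 0.036. By limma 2 of the 6 had an unadjusted p under 0.05, against 30.5% of all named genes. Gpr17, a receptor of cells about to myelinate, was singled out after its values were seen. It read 11.98, 11.42, 11.42 and 13.07 in WT veh and 12.10, 12.43, 12.05 and 12.44 in WT NR. The Atm-/- arrays read 10.99, 11.06, 10.70 and 11.13 under veh and 11.76, 12.10, 12.04 and 11.71 under NR. The Atm-/- veh arrays lay below all 12 others. Of all named genes, groups did not overlap for 8.74% in Atm-/- veh against WT veh and 26.3% in Atm-/- NR against Atm-/- veh. The differences were -0.998 in Atm-/- veh against WT veh (SE 0.28, limma adjusted p = 0.198) and 0.93 in Atm-/- NR against Atm-/- veh (SE 0.28, adjusted p = 0.0544), neither past the threshold. Without WT veh 4 the first was -0.63 (adjusted p = 0.164). The second passed in 8 of 26 alternatives, with adjusted p from 0.00636 to 0.373, the lowest without WT veh 4. The 9 myelin genes had medians of -0.043 and -0.029 in these comparisons.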

How the data were processed

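RNA of the cerebellum of 16 mice was hybridized to 16 one-colour (Cy3) Agilent arrays, and groups and replicate numbers came from the sample titles. The scanner files deposited by the authors (Agilent Feature Extraction 12.0.3.1) give the intensity per spot with its local background removed, not yet normalized across arrays. The authors' deposited scores, z-scores of each spot, served as an alternative. Accessions in the array design, matched to RefSeq genes of GRCm38.p6, gave names to 32994 of 56605 probes.

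Detection required a share of at least 0.5 of a probe's spots well above background, and probes detected throughout any group of 4 arrays were kept. Their log2 intensity was quantile normalized and averaged over unmarked spots, for 37253 probes. The model was limma 3.58.1 (R 4.3.3, with tables read by data.table version 1.17.8), with 1 mean per group, 12 residual degrees of freedom and Benjamini-Hochberg adjustment over all kept probes, and called at an adjusted p under 0.05. The model was also run on simulated data, with noise drawn for each probe on its own. Those data held no swings shared by genes of an array and no slide effect, so the run says nothing about either. The methods' t-test and rule were run on z-scores. For a list, the deviations of its genes from their 16-array means were averaged per array, and correlations are descriptions over arrays, with no p. The number of arrays limits the precision.

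The member genes and the gene lists were chosen with earlier results of these data known. Named were all members, Atm, the 3 largest changes per stated comparison among the oligodendrocyte list and the lineage regulators, and genes among the 8 most like the myelin mean; some genes are not reported here. Apod, Klk6, Gpr17, Cspg4, Cacng4, Slc17a6 and the genes used to check the labelled sex were named after their values were seen. The factor Myrf was not kept by the filter, and 1 gene of the oligodendrocyte list was not matched.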

Additional observations from a re-analysis of the deposited data

Results flagged for a closer look

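The spread between arrays of each member was examined in each group, together with the mean of the 9, in 40 groups of 4 arrays in all, by the gap between an extreme array and its nearest neighbour as a share of the group's range. The share passed Dixon's critical value of 0.829 in 5 of these, where chance passes about 1 in 20.

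For Ugt8a the array Atm-/- NR 3 read 9.99 against 10.39 to 10.43 on the other 3 (gap share 0.923), and WT NR 4 read 11.57 against 10.59 to 10.70 (0.882). For Cnp the array Atm-/- veh 1 read 14.70 against 14.51 to 14.52 (0.913), a gap within the narrowest of these groups, and WT NR 4 read 15.09 against 14.51 to 14.57 (0.908). For Opalin the array Atm-/- veh 3 read 7.79 against 9.03 to 9.19 (0.885). The causes were not tested.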

How the results depend on the processing

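No member was called by limma under any alternative (lowest adjusted p 0.148). The exception among the counts was Atm-/- NR against WT NR by the methods' t-test at its unadjusted threshold, with 3 members (Mag, Mobp and Cldn11), and 0 after Benjamini-Hochberg adjustment. By limma the same 3 members also had an unadjusted p under 0.05 in that comparison, so the exception lay in the missing adjustment. At that unadjusted threshold 2392 of the 37253 kept probes passed. The methods' full rule passed 0 members in each of its 4 comparisons. Of all kept probes it passed 737 in Atm-/- veh against WT veh and 566 in Atm-/- NR against WT NR. It passed 1285 in Atm-/- NR against Atm-/- veh and 605 in WT NR against WT veh. Leaving out 1 array at a time gave medians of -0.29 to 0.0959 in Atm-/- veh against WT veh, -0.52 to -0.24 in Atm-/- NR against WT NR, -0.0829 to 0.0298 in Atm-/- NR against Atm-/- veh, 0.15 to 0.49 in WT NR against WT veh and -0.51 to -0.17 for the difference between the NR effects.

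Single members turned sign in 19 cases. In Atm-/- veh against WT veh, Cnp was -0.0119 and Cldn11 -0.0475 with 75th percentile scaling, Cnp -0.0172 and Cldn11 -0.0435 with normexp, Mbp 0.11 and Cldn11 -0.10 with only the arrays with Y-linked signal, and Mobp 0.00734 as a mean over its probes. In Atm-/- NR against Atm-/- veh, Mog was 0.00439 with normexp and 0.00684 without the 4 NR arrays high in Tcf7l2, and with only arrays with Y-linked signal Mbp was -0.0351 and Ugt8a -0.14. In that setting the difference between the NR effects was -0.44 for Opalin and 0.12 for Mal. Without those 4 NR arrays and WT veh 4, Mbp was 0.0222, Mag 0.0585, Mobp 0.0839 and Cnp -0.0208 in Atm-/- veh against WT veh, Mog 0.00684 in Atm-/- NR against Atm-/- veh and Opalin -0.0339 in WT NR against WT veh. Both sets of arrays left out were chosen after seeing the data.

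Leaving out 1 array at a time turned the sign in 25 cases of single members. In Atm-/- veh against WT veh the ranges were -0.30 to 0.11 for Mbp, -0.0449 to 0.30 for Mog, -0.23 to 0.0923 for Mag, -0.37 to 0.15 for Mobp, -0.12 to 0.21 for Cnp and -0.20 to 0.13 for Cldn11. They were -0.0829 to 0.0298 for Mog and -0.10 to 0.32 for Ugt8a in Atm-/- NR against Atm-/- veh, and -0.20 to 0.27 for Opalin and -0.24 to 0.074 for Mal in the difference.

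The replicate number did not pair the samples, since same-numbered arrays correlated between -0.151 and 0.195 in their deviations. With it as a block, 0 members were called in each of the 5 comparisons, and calls over all probes went from 20, 20, 3366, 0 and 0 to 15, 19, 3140, 0 and 0. The number of arrays limits the precision, and every member probe was well above background throughout.

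Of the other genes named with a change, Il33 passed the threshold in Atm-/- NR against Atm-/- veh in 2 of 26 alternatives (adjusted p 0.0182 to 0.459). In that comparison up to 3 of 39 genes of the oligodendrocyte list were called, in 6 of 26 alternatives. With 75th percentile scaling, which gave 3, limma called 4059 of the 37253 kept probes. These alternatives for other genes were chosen after seeing the data.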
